A study of Glycine max with 21 samples.

Results

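The response of soybean roots to 6 hr of salt was measured by comparing 3 salt libraries with 3 control libraries, 6 of the 21 RNA-Seq libraries of the study. The members were taken by their labels: salt 6 hr replicates 1, 2 and 3, and control replicates 1, 2 and 3. All plants were wild-type seedlings of the cultivar Williams 82, the source of the soybean reference genome, grown on moist paper to the first trifoliolate stage. Roots of the control plants were harvested at 0 hr without stress, and roots of the salt plants after 6 hr in 100 mM NaCl. The study also holds salt at 1 and 12 hr, and dehydration in air at 1, 6 and 12 hr, each with 3 biological replicates. A control was taken at 0 hr only, so that hours of salt and hours since the control harvest cannot be told apart in this comparison. The gene models in the deposited tables carry no descriptions, so the tissue label was not checked against root markers, and gene identities below are limited to the transcription factor classes and HD-Zip subfamilies assigned by the study.

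Salt reaches roots first as an osmotic stress and then as an excess of sodium ions, and both are known to set off large changes in transcription. Much of that change passes through families of plant transcription factors. The WRKY family takes part in defence and stress responses, and the AP2-EREBP family includes regulators of ethylene and dehydration responses. NAC and C2H2 zinc finger factors include stress regulators as well, and the ZIM family includes, in Arabidopsis, the JAZ repressors of jasmonate signalling, whose own genes are switched on by jasmonate.

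The control libraries held 7478459, 8523477 and 8486898 counts, and salt 6 hr replicates 1, 2 and 3 held 5259475, 4202958 and 13759153. Rank correlations between replicates of a group, computed across genes, lay between 0.886 and 0.965. The lowest of these was between salt replicates 1 and 3. All 3 salt 6 hr libraries were sequenced in lane 2, whereas the controls were in lanes 3 and 4, so no lane held both groups. Salt 6 hr replicate 3 also had the lowest share of uniquely mapped reads in the study, and its part in the results below was not tested.

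At 6 hr of salt more root genes were upregulated than downregulated. Of 36691 gene models tested, 3543 (9.66%) were differentially expressed (DE), defined as an adjusted p under 0.05 in edgeR's quasi-likelihood test and a fold change of at least 2. Of these, 2382 (6.49% of those tested) were upregulated and 1161 (3.16%) were downregulated. The median log2 fold change was 2.28 among upregulated and -1.53 among downregulated genes, against -0.03 over all genes tested. With the 59 upregulated genes that had no count in any control set to their lower bound, the first median was 2.27. At least 4-fold changes were fitted for 1414 upregulated and 299 downregulated genes. The spread between replicates was a biological coefficient of variation of 0.306.

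The levels of the called genes are given here as a description. Genes were kept for testing if they were expressed in any group, so a gene low in the control entered mostly where another group was higher, and its direction is partly set by that filter. The median upregulated gene was at 4.06 CPM (read counts per 1e+06 counts, with the library total scaled by its TMM factor) in the control and 21.3 CPM in salt, and the median downregulated gene went from 15.4 to 5.17 CPM. Among genes with a control mean between 100 and 1000 CPM, 1.83% were upregulated and 5.04% downregulated. In 257 upregulated genes each control library held 3 counts or fewer. The upregulated genes together took 2.41%, 3.2% and 2.69% of all counts in the control libraries, and 14.5%, 11.5% and 6.73% in salt replicates 1, 2 and 3. The share of salt replicate 3 was thus above the controls and below the other salt replicates. The downregulated genes took 4.27%, 4.21% and 4.42% of counts in the controls and 1.23%, 1.42% and 1.61% in the salt libraries, where the 3 replicates lay closer to each other.

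In 2099 of the 2382 upregulated genes the 3 salt libraries lay above all controls, and in 1101 of the 1161 downregulated genes they lay below. Over all genes tested, 15.2% lay above and 13.8% lay below. The count of DE genes depended on single libraries, being 1871 without salt replicate 1, 2081 without control replicate 3 and 4210 without salt replicate 3. With sequencing lane as a term, in a fit where lane and treatment are tied together only through salt 12 hr replicate 1, 33 genes were DE, and 3518 of the 3543 kept their direction.

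Among genes outside the listed factor classes, 2 led in each direction by p-value. Glyma19g41760 was at 12.9, 20.9 and 16 CPM in the controls and at 162, 155 and 143 CPM in salt (log2 fold change 3.21 ± 0.23, SE; edgeR adjusted p = 7.88e-07). Glyma09g26440 was at 0.411, 0.454 and 0.335 CPM in the controls and at 24.4, 20.2 and 11.7 CPM in salt (log2 fold change 5.49 ± 0.41; edgeR adjusted p = 7.88e-07). Both were well separated between groups, and the first was nearly even across the salt replicates. On the downregulated side, Glyma11g25860 went from 216, 179 and 180 CPM to 7.99, 21.1 and 14.6 CPM (log2 fold change -3.72 ± 0.27; edgeR adjusted p = 7.88e-07). Glyma15g36790 went from 63.5, 63.1 and 46.9 CPM to 6.35, 4.23 and 3.00 CPM (log2 fold change -3.72 ± 0.33; edgeR adjusted p = 3.55e-06). All 4 genes were also DE with lane as a term. After 6 hr of dehydration they had moved the same way against the control, with log2 fold changes of 2.78, 3.94, -4.16 and -4.63 in the order above. In the direct comparison only Glyma09g26440 differed between salt and dehydration (edgeR adjusted p = 0.00253). Glyma19g41760, Glyma11g25860 and Glyma15g36790 were not called there (edgeR adjusted p 0.163, 0.241 and 0.069).

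Transcription factor genes were taken from the study's own list of 1054 genes, which the study selected as DE in these same samples under salt or dehydration. Counts over this list are therefore not independent evidence of a response. Class counts and shares below cover the listed members only, and members of a class outside the list were not counted. Of the 978 listed genes tested, 295 were upregulated and 92 downregulated at 6 hr of salt, 30.2% and 9.41% of them. These counts were 172 and 56 without salt replicate 1, and 2 and 4 with lane as a term.

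**Figure D1:**
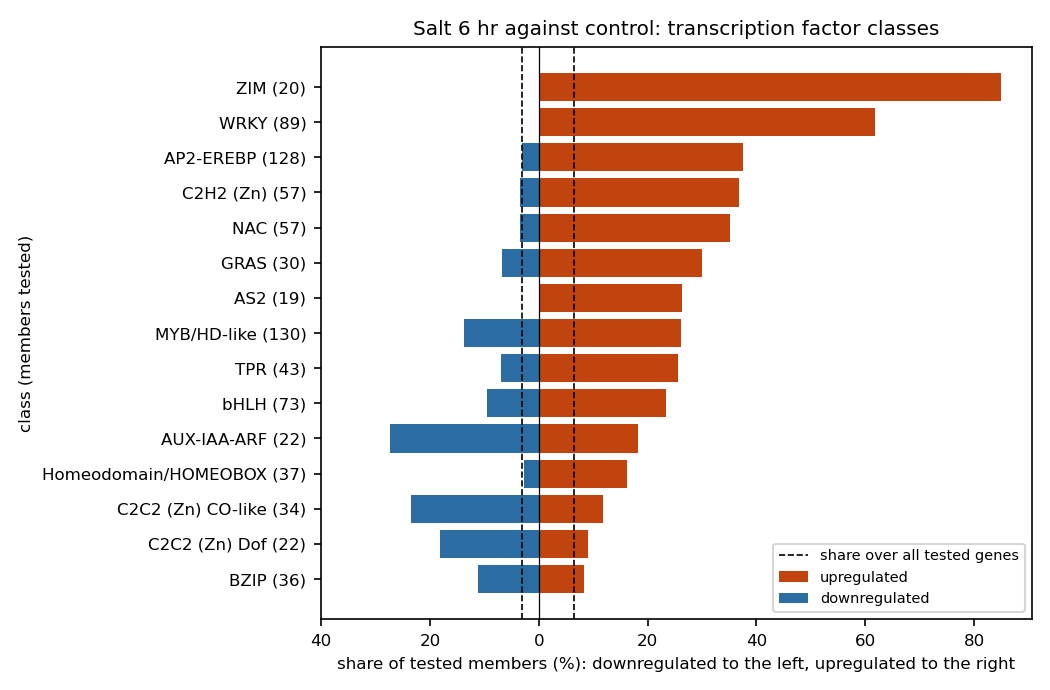
Share of tested members of each transcription factor class with at least 20 listed genes that was upregulated (right, red) or downregulated (left, blue) at 6 hr of salt, in percent, with the number of members tested in brackets. Dashed lines mark the shares over all genes tested, 6.49% up and 3.16% down. The listed members were chosen by the study as DE in these samples, so bars beyond the lines are not evidence of a class response. ZIM and WRKY stand highest on the right and have no downregulated member, and the AUX-IAA-ARF, CO-like, Dof and BZIP classes have more downregulated than upregulated members here, an order that AUX-IAA-ARF and BZIP did not keep without some single libraries.

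The listed WRKY genes were called in 1 direction only. Of 89 listed WRKY genes tested, 55 were upregulated and 0 downregulated in edgeR's test. At an unadjusted p under 0.05 edgeR gave 70 up and 0 down, DESeq2 called 64 up and 0 down, and limma 54 up and 0 down. In 74 of the 89 genes, which the study had chosen as DE, all salt libraries were above all controls, against 15.2% of all genes tested. The median log2 fold change of the 89 genes was 2.13, and the 34 genes not called ranged from -0.77 to 2.26. The number upregulated was 36 without control replicate 1 and 34 without salt replicate 1.

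Glyma17g33890, a WRKY gene, led the upregulated factor genes by p-value. Its level was 0.548, 1.25 and 0.446 CPM in the controls and 70.2, 58.5 and 65.6 CPM in the salt libraries, with replicate 3 as high as the other replicates. The log2 fold change was 6.39 ± 0.64 (SE; edgeR adjusted p = 1.89e-05). Glyma14g11960, also WRKY, had 0.137, 0.227 and 0 CPM in the controls, 3 counts in all, and 24.6, 14.4 and 42.5 CPM in salt (edgeR adjusted p = 3.3e-05). Here replicate 3 was the highest of the salt libraries. Glyma13g34250, a further WRKY gene, was at 0.112 to 0.454 CPM in the controls and at 30.3, 27.4 and 10.1 CPM in salt, with replicate 3 the lowest (log2 fold change 6.06 ± 0.76; edgeR adjusted p = 0.000197).

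Among classes with at least 20 listed genes, ZIM had the largest share of upregulated members. The list held only the 20 ZIM genes that the study had chosen as DE, and all 20 were tested. Of these, 17 were upregulated and 0 downregulated in edgeR's test (19 and 0 at an unadjusted p under 0.05). DESeq2 called 18 up and 0 down and limma 16 and 0, and the log2 fold changes of the 20 ran from 1.08 to 7.4. The 3 genes not called, Glyma08g10220, Glyma17g04850 and Glyma13g17640, had log2 fold changes of 1.55, 1.40 and 1.15, and their salt libraries overlapped the controls. Glyma15g19840 had the smallest p-value in the class and was at 25.4, 31.3 and 52.2 CPM in the controls and 237, 245 and 102 CPM in salt (log2 fold change 2.42 ± 0.43; edgeR adjusted p = 0.0021). Glyma15g09980 was at 0, 0.114 and 0.446 CPM in the controls and at 36.9, 66.9 and 5.50 CPM in salt, and Glyma01g41290 was at 0.686, 1.02 and 4.57 CPM against 188, 235 and 23.9 CPM. These genes share a pattern in which salt replicates 1 and 2 lay together and replicate 3 lay over 2-fold lower. Replicate 3 was the lowest salt library in 19 of the 20 genes. The number upregulated was 12 without each of control replicates 1 and 2 and salt replicate 1.

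**Figure D2:**
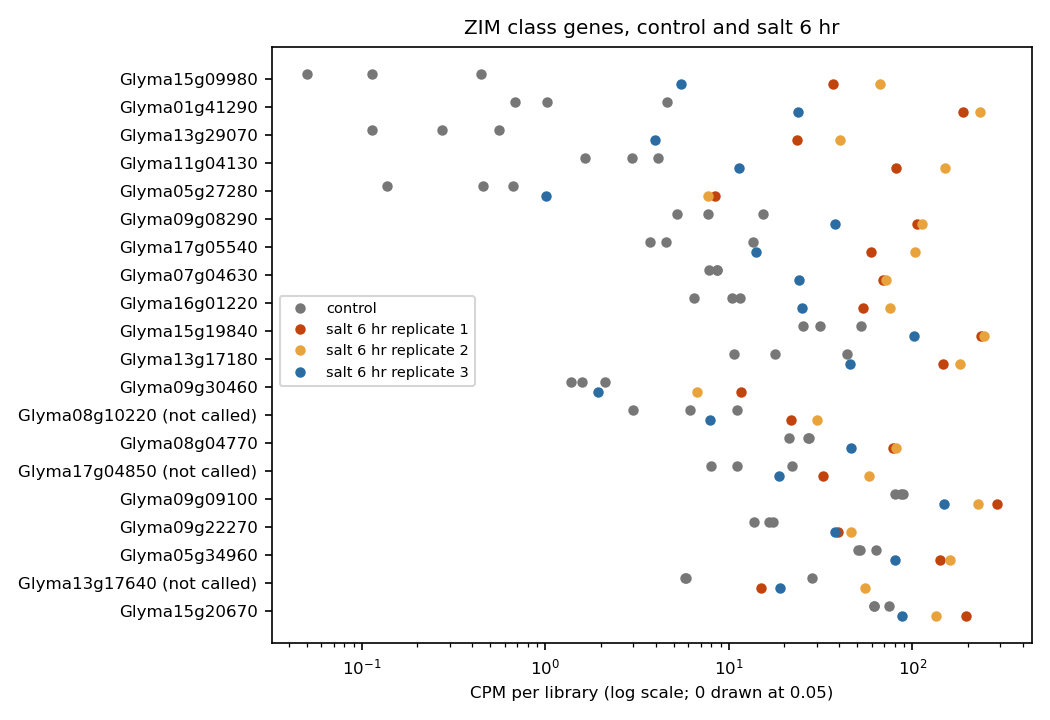
Level of each of the 20 listed ZIM genes, in CPM on a log axis, ordered by fold change. The 3 control libraries are grey, and salt 6 hr replicates 1, 2 and 3 are red, orange and blue. In 19 genes the blue point is the lowest of the salt points, and in Glyma09g22270, at 39.5, 46.5 and 37.7 CPM, the 3 salt libraries lay close together.

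Among the listed AP2-EREBP, C2H2 zinc finger and NAC genes more were upregulated than downregulated, and most of those tested were not called. Of 128 AP2-EREBP genes tested, 48 were upregulated and 4 downregulated, of 57 C2H2 genes 21 and 2, and of 57 NAC genes 20 and 2. Glyma17g18640, an AP2-EREBP gene, was at 11.1, 7.26 and 7.03 CPM in the controls and 39.3, 30.6 and 34.6 CPM in salt (log2 fold change 2.04 ± 0.26; edgeR adjusted p = 0.000205), so that all salt replicates responded to a like extent. The NAC gene Glyma06g16440 went from 10.1, 19.4 and 12.4 CPM to 216, 178 and 97.9 CPM (log2 fold change 3.55 ± 0.51; edgeR adjusted p = 0.000555). The C2H2 gene Glyma08g21080 went from 6.17, 7.49 and 7.25 CPM to 33.8, 23.9 and 28.0 CPM (log2 fold change 2.03 ± 0.27; edgeR adjusted p = 0.000293). When 1 library was left out, the upregulated counts were lowest without salt replicate 1, at 28 AP2-EREBP, 12 C2H2 and 9 NAC genes. Those of AP2-EREBP and NAC were 30 and 11 without control replicate 1 and also 30 and 11 without control replicate 3. A fit of the 6 control and salt 6 hr libraries alone gave 17 AP2-EREBP, 11 C2H2 and 12 NAC genes upregulated. With lane as a term each class had 0 (edgeR, where DESeq2 called 55, 23 and 25 with all libraries). The downregulated counts also moved, to 0 AP2-EREBP and 0 C2H2 genes without salt replicate 1 (edgeR, where DESeq2 called 4 and 2 with all libraries) and to 1 NAC gene without any 1 library. AP2-EREBP had 2 without control replicates 1 or 2 or salt replicate 2, and C2H2 had 1 without control replicate 2 or salt replicate 3. In the fit of the 6 libraries alone and in the fit with lane, AP2-EREBP and C2H2 each had 0 downregulated genes (edgeR). NAC had 2 and 0 in these fits. The AP2-EREBP gene Glyma11g02140, at 2.33, 3.63 and 6.14 CPM in the controls and 0.614, 1.74 and 0.357 CPM in salt (edgeR adjusted p = 0.0165), was not called without control replicate 3, salt replicate 1 or salt replicate 3, with adjusted p of 0.066 to 0.079.

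A pair of JUMONJI genes, the class of histone demethylases, was among the 10 leading upregulated factor genes. Glyma11g13910 was at 1.23, 3.97 and 3.01 CPM in the controls and at 56.5, 29.4 and 22.1 CPM in salt, and Glyma12g05890 at 2.19, 4.65 and 3.01 CPM against 51.4, 24.4 and 16.4 CPM. In both genes replicate 1 was the highest and replicate 3 the lowest of the salt libraries. The log2 fold changes were 3.68 ± 0.37 (edgeR adjusted p = 2.01e-05) and 3.20 ± 0.36 (edgeR adjusted p = 5.88e-05). The other leading genes were the zinc finger genes Glyma17g37650 (CCHC) and Glyma14g37330 (C3H), with log2 fold changes of 1.33 ± 0.17 and 1.76 ± 0.23, and the MYB/HD-like genes Glyma02g00820 and Glyma12g11490, with 2.80 ± 0.36 and 4.28 ± 0.57. Glyma12g11490 was at 18.2 and 15.7 CPM in salt replicates 1 and 2 and at 52.3 CPM in replicate 3, against at most 1.93 CPM in the controls. The 10 leading upregulated and 10 leading downregulated factor genes were all called without each library in turn. With lane as a term, only Glyma17g33890 of the leading upregulated genes kept its call (edgeR adjusted p 0.0475), and the others had 0.0565 to 0.202. Of the leading downregulated genes, Glyma16g01980, Glyma03g42260, Glyma11g07930 and Glyma16g34340 kept their calls in that fit. The others lost them, with edgeR adjusted p of 0.0766 to 0.23.

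**Figure D3:**
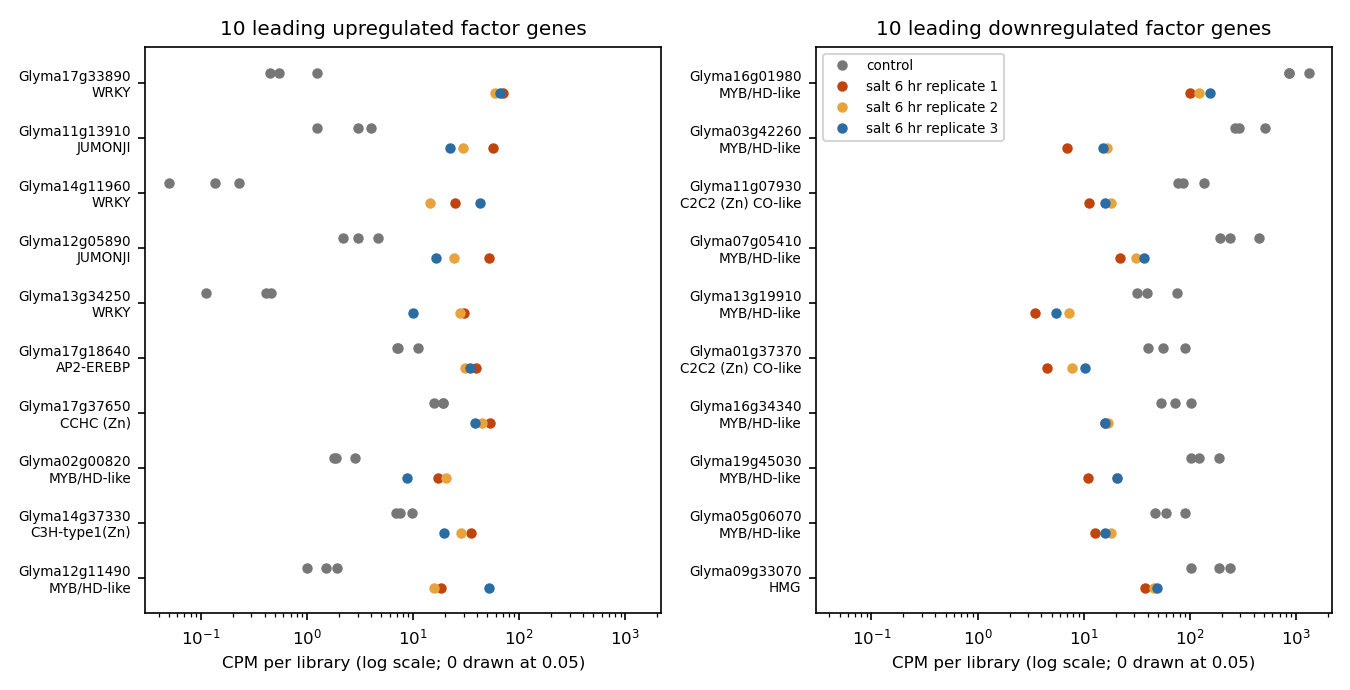
Level in each library, in CPM on a log axis, of the 10 upregulated (left) and 10 downregulated (right) listed factor genes with the smallest p-values, with controls in grey and salt 6 hr replicates 1, 2 and 3 in red, orange and blue. Salt and control points do not overlap in any of the 20 genes, which was a condition for showing them. On the left the blue point is lowest in 6 of 10 genes, and on the right the 3 salt points lie together well below the controls.

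The MYB/HD-like class, which in plants holds MYB and MYB-related factors, went both ways, with 34 genes upregulated and 18 downregulated of 130 tested (22 upregulated without salt replicate 1). Of the 10 leading downregulated factor genes, 7 were MYB/HD-like. Glyma16g01980 was the most abundant of them, at 1313, 855 and 866 CPM in the controls and 99.5, 121 and 155 CPM in salt (log2 fold change -3.01 ± 0.22; edgeR adjusted p = 7.88e-07). Glyma03g42260 showed the steepest fall of the 10, from 516, 292 and 265 CPM to 6.96, 16.7 and 15.3 CPM (log2 fold change -4.78 ± 0.40; edgeR adjusted p = 2.15e-06). Glyma07g05410 went from 447, 192 and 241 CPM to 21.9, 31.3 and 36.7 CPM (log2 fold change -3.28 ± 0.33; edgeR adjusted p = 1.89e-05). In all of these, replicate 3 had dropped as far as replicate 2 or nearly so, in contrast to the ZIM genes. The calls for Glyma16g01980, Glyma03g42260 and Glyma16g34340, also MYB/HD-like, held with lane as a term (edgeR adjusted p 0.00587, 0.0141 and 0.0498), and Glyma07g05410 then had an adjusted p of 0.0766.

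The CO-like class of zinc finger genes, named after the Arabidopsis flowering regulator CONSTANS, had 8 genes downregulated and 4 upregulated of 34 tested (2 upregulated without control replicate 3). Glyma11g07930 went from 136, 85.6 and 77.1 CPM to 11.3, 18.2 and 16 CPM (log2 fold change -2.71 ± 0.25; edgeR adjusted p = 6.37e-06). Glyma01g37370 went from 90.4, 55.6 and 40.7 CPM to 4.50, 7.71 and 10.3 CPM (log2 fold change -3.01 ± 0.36; edgeR adjusted p = 0.000139). Control replicate 1 was the highest control in both genes, yet the lowest control remained well above the highest salt library. In the same group of 10, Glyma09g33070 of the HMG class, a class of DNA-bending chromatin proteins, went from 102, 188 and 238 CPM to 37.5, 46.3 and 49.2 CPM (log2 fold change -1.99 ± 0.29; edgeR adjusted p = 0.000583).

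Counts in the remaining classes were smaller. In AUX-IAA-ARF, the auxin signalling class, 4 genes were upregulated and 6 downregulated of 22 tested, which was 5 and 4 without salt replicate 3 and 3 and 3 without control replicate 3. Glyma07g06060 of this class went from 45.5, 47.7 and 80.4 CPM to 17, 16.7 and 25.5 CPM (log2 fold change -1.54 ± 0.31; edgeR adjusted p = 0.00474). Glyma17g12080 of the same class was at 0.112 to 0.454 CPM in the controls and at 9.01, 7.46 and 2.07 CPM in salt, with no overlap. Among GRAS genes, a family that includes regulators of gibberellin signalling and root patterning, 9 were upregulated and 2 downregulated of 30 tested. Dof genes had 2 and 4 of 22 (9.09% and 18.2%). BZIP genes, which include factors of the abscisic acid response, had 3 upregulated and 4 downregulated of 36, and 3 and 3 without control replicate 3 or salt replicate 1. With all libraries the BZIP shares were 8.33% and 11.1%, where all genes tested, which were not chosen as DE, gave 6.49% and 3.16%. The BZIP gene Glyma05g28960 was at 21.7, 32.5 and 29.5 CPM in the controls and at 150, 174 and 39.7 CPM in salt, and Glyma18g14750 went from 68.0, 54.5 and 54.4 CPM to 4.30, 21.1 and 13.6 CPM. In the first of them replicate 3 lay a little above the highest control. The other classes had 17 upregulated and 7 downregulated of 73 bHLH genes, 11 and 3 of 43 TPR genes, 5 and 0 of 19 AS2 genes and 6 and 1 of 37 homeodomain genes. Several of these small counts moved by over 1.5 times when 1 library was left out. Without salt replicate 1, the upregulated counts were 1 in AUX-IAA-ARF, 4 in GRAS, 9 in bHLH, 5 in TPR, 1 in Dof and 2 in AS2, and the downregulated counts 3 in AUX-IAA-ARF, 3 in bHLH, 1 in GRAS and 0 in TPR (edgeR). Without control replicate 1 there were 5 upregulated GRAS, 7 TPR, 2 AS2 and 1 Dof genes and 2 downregulated Dof genes. Without control replicate 2 there were 2 upregulated AUX-IAA-ARF and 2 AS2 genes and 3 downregulated bHLH and 1 downregulated GRAS genes. Without control replicate 3 there were 6 upregulated TPR, 3 homeodomain, 2 AS2 and 1 Dof genes and 3 downregulated AUX-IAA-ARF and 2 downregulated bHLH genes. Without salt replicate 2, AS2 had 2 and Dof 1 upregulated genes and GRAS 1 downregulated gene, and without salt replicate 3 bHLH had 4 and TPR 6 downregulated genes.

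HD-Zip genes, which encode a homeodomain followed by a leucine zipper and are the family the study was built around, were mostly not called. They were identified by the study from sequence, so this list was not chosen on expression. Of the 101 genes 94 were in the count table, 68 were tested, and 8 had no count in any of the 6 libraries. At 6 hr of salt 3 were upregulated (4.41%) and 2 downregulated (2.94%), shares near the 6.49% and 3.16% over all genes. Glyma15g18320, of subfamily II, was at 0, 0.114 and 0.335 CPM in the controls and at 14.5, 9.45 and 2.79 CPM in salt (log2 fold change 5.66 ± 0.77; edgeR adjusted p = 0.000317). This gene was called without each library in turn, but not with lane as a term (edgeR adjusted p 0.141). Glyma13g00310 and Glyma02g28860, both also subfamily II, reached 6.96, 1.99 and 1.43 CPM and 22.3, 14.9 and 7.22 CPM in salt, where the highest controls were 0.908 and 7.13 CPM. Their calls (edgeR adjusted p 0.0298 and 0.0455) were lost without any single control library and without salt replicate 1, with adjusted p of 0.051 to 0.268, and the second also without salt replicate 2.

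Of the downregulated HD-Zip genes, Glyma19g01300 of subfamily I, a subfamily with known roles in abiotic stress, was among the more abundant members and went from 244, 301 and 176 CPM to 122, 107 and 122 CPM (log2 fold change -1.03 ± 0.19; edgeR adjusted p = 0.00246). Its change lay at the 2-fold limit and was no longer past it without control replicate 2 or salt replicate 2. Glyma09g40130 of subfamily IV was low throughout, at 1.78, 1.36 and 2.68 CPM against 0.205, 0.746 and 0.286 CPM (edgeR adjusted p = 0.0326), and was not called without control replicates 1 or 3 or salt replicates 1 or 3, with adjusted p of 0.051 to 0.115. Among 27 homoeologous pairs of exactly 2 tested genes, the copies had the same sign in 16 and in 0 pairs were both called. For comparison, edgeR gave an unadjusted p under 0.05 for 10 of the 68 genes, where 28.4% of all genes tested had one. Glyma07g01940, Glyma07g01950, Glyma08g21610 and Glyma08g21620 of subfamily III share a single pair label and were left out of this count of pairs. The partner of Glyma19g01300, Glyma13g23890, had a log2 fold change of -0.46 ± 0.28 (edgeR adjusted p = 0.3). Of the 11 subfamily III genes tested, none was called, and Glyma08g13110 was the only one with an unadjusted p under 0.05, with a log2 fold change of 0.56 ± 0.23 and an edgeR adjusted p of 0.117.

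Salt 6 hr replicate 3 responded less than the other salt replicates. To measure this on genes that the library had no part in choosing, genes were called with each salt library left out in turn, and the left-out library was then read on them as the log2 ratio of its level (CPM plus 0.5) to the control mean. Replicate 3 had a median of 0.94 over the 2948 genes upregulated without it, where the libraries that called them had medians of 1.92 and 2.25. Replicate 1 had a median of 2.62 over 1260 genes and replicate 2 a median of 2.28 over 1702 genes, both within or above the range of their calling libraries. Replicate 3 was the salt library nearest to the control in 85.7% of the genes, against 21.8% for replicate 1 and 16.3% for replicate 2. It reached a 2-fold change in 47.5% of them, against 89.2% and 90.5%, and did not pass the highest control in 23.5%, against 3.65% and 0.94%. The 3 sets of genes differ, and replicate 3 helped to call those on which replicates 1 and 2 were read. These medians and shares are therefore not over like genes. The values are descriptions of 3 libraries, and no test between single libraries was made.

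**Figure D4:**
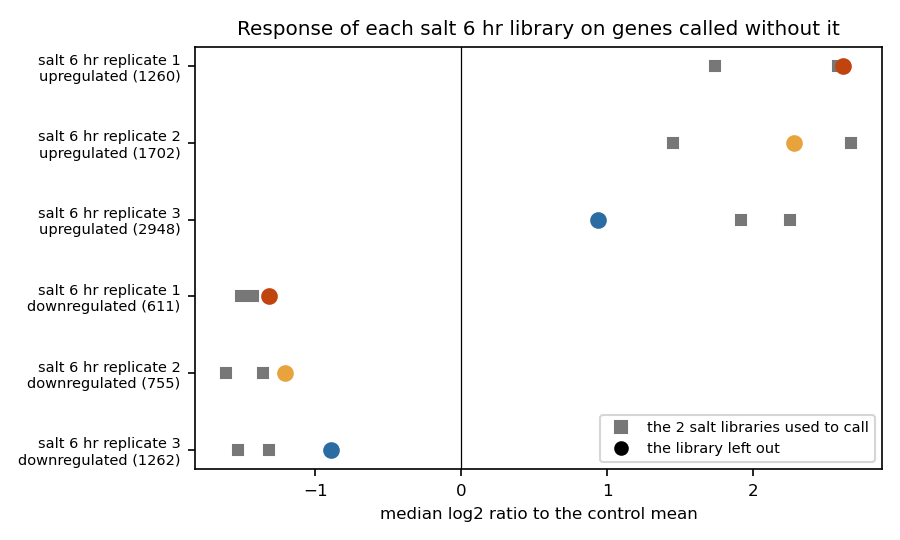
Median log2 ratio to the control mean of each salt 6 hr library (circle) over the genes called DE without it, beside the medians of the 2 salt libraries used to call them (grey squares), with the number of genes in brackets. For upregulated genes the circle of replicate 3 is at 0.94, left of its squares at 1.92 and 2.25, and for downregulated genes it is at -0.89 against -1.53 and -1.32.

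The gap was narrower for downregulated genes. Replicate 3 had a median of -0.89 over the 1262 genes downregulated without it, and replicates 1 and 2 had medians of -1.32 over 611 and -1.21 over 755 genes. Each fell short of its calling libraries, which had -1.53 and -1.32 for replicate 3, -1.51 and -1.43 for replicate 1, and -1.61 and -1.36 for replicate 2. The left-out library was nearest to the control in 72.3% of genes for replicate 3, 48.4% for replicate 1 and 57.9% for replicate 2. Thinning replicate 3, the deepest of the salt libraries, to the count total of replicate 1 left its medians at 0.92 and -0.92. Genes called at 12 hr of salt, where replicate 3 took part only through the shared estimate of spread, gave the same order: over 2634 upregulated genes the medians of replicates 1, 2 and 3 at 6 hr were 2.06, 1.94 and 1.13, and over 1901 downregulated genes -1.06, -1.02 and -0.82. The root mean square log2 difference over all tested genes from replicate 3 was 0.846 to the controls, 0.819 to salt 1 hr, 0.865 to the other salt 6 hr libraries and 0.809 to salt 12 hr. Replicate 1 differed by 1.18 from the controls and by 0.847 from the other salt 6 hr libraries, and replicate 2 by 1.06 and 0.755. This difference also grows with counting error, which is larger in shallower libraries, and it was not computed on thinned counts. By this measure alone, replicate 3 was about as far from its own group as from the controls.

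**Figure D5:**
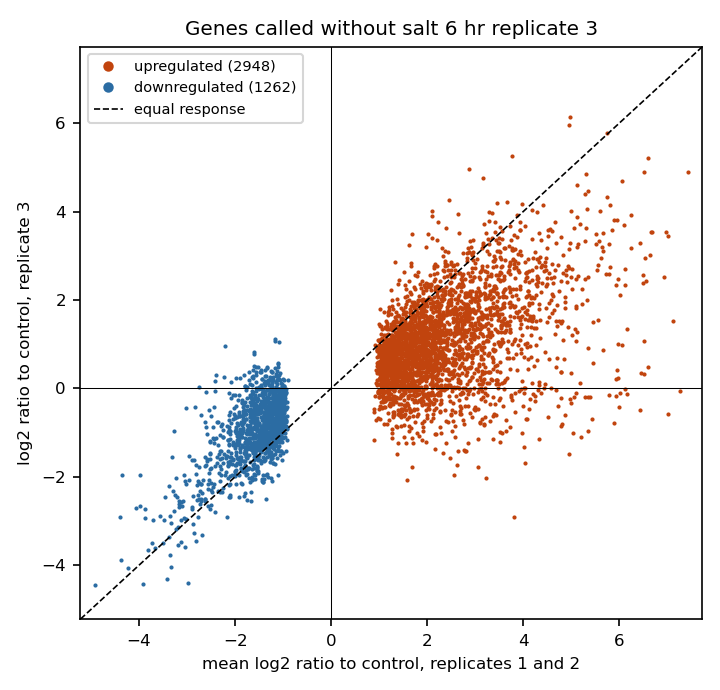
Log2 ratio to the control mean of salt 6 hr replicate 3 (vertical) against the mean of replicates 1 and 2 (horizontal), for the 2948 genes upregulated (red) and 1262 downregulated (blue) without replicate 3, with equal response dashed. Most red points lie below the line, with a band near 0 that extends across the whole horizontal range, and the strongly downregulated blue points lie nearer to the line.

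Over the genes upregulated without replicate 3, the percentiles 10 and 90 of the log2 ratio were -0.13 and 2.46 in that library and 1.20 and 3.95 in the mean of the others. By class, the medians of replicates 1, 2 and 3 were 3.15, 2.78 and 1.74 for 57 WRKY genes, 2.82, 2.54 and 0.96 for 56 AP2-EREBP genes, and 2.79, 3.00 and 1.19 for 18 ZIM genes. Replicate 3 was nearest to the control in 46 of the WRKY genes, 54 of the AP2-EREBP genes and all 18 ZIM genes. In the downregulated MYB/HD-like and CO-like genes, 20 and 8 of them, the medians were -3.32, -2.31 and -2.27, and -2.90, -2.13 and -2.28, so that the median of replicate 3 was near that of replicate 2.

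Among 190 listed factor genes upregulated without replicate 3 and with a mean of at least 20 CPM in replicates 1 and 2, the ratio of replicate 3 to that mean ran from 0.0185 to 1.64 with a median of 0.423, and it was over 1 in 6 genes. The AP2-EREBP gene Glyma19g40070 was at 805, 452 and 11.7 CPM in salt replicates 1, 2 and 3, against 16.2, 37.1 and 16.2 CPM in the controls. Glyma02g00870, of the same class, was at 23.8, 24.6 and 0.643 CPM, and Glyma13g07590, of the AS2 class of lateral organ boundary factors, at 204, 119 and 4.43 CPM. For Glyma19g40070 and Glyma13g07590 replicate 3 was below every control, and for Glyma02g00870 it was above the controls, which were at 0, 0.227 and 0.112 CPM. At the other end, the WRKY genes Glyma18g44560 and Glyma09g41050 were at 204, 157 and 296 CPM and at 205, 209 and 264 CPM, and Glyma17g02570 of the TUB (Tubby-like) class at 36.7, 30.8 and 44.3 CPM. The TUB gene rose from 20, 15.3 and 14.2 CPM in the controls, a log2 fold change of 1.18 ± 0.20 (edgeR adjusted p = 0.00155). Replicate 3 was the highest salt library in these 3 genes. With all libraries in the fit, the calls of Glyma19g40070 and Glyma13g07590 (edgeR adjusted p 0.0112 and 0.0278) were lost without some single libraries, control replicate 3 and salt replicate 1 for the first (edgeR adjusted p 0.055 and 0.054) and every library except salt replicate 3 for the second (0.059 to 0.128).

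Dehydration for 6 hr gave libraries taken after the same hours of treatment, sequenced in lanes 3 and 4. The salt and dehydration groups at 6 hr differed in 5380 genes (14.7% of those tested). Of the 2382 genes upregulated by 6 hr of salt, 1798 (75.5%) were also above dehydration and 0 were below it (1 at an unadjusted p under 0.05). Of the 1161 downregulated, 608 (52.4%) were below dehydration and 2 above. The groups share the salt libraries with the comparison above, and with lane as a term edgeR called 0 genes (5963 had an unadjusted p under 0.05 in that fit).

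Counts by class and direction are given beside these shares, with no test between classes. Of the upregulated WRKY genes 52 of 55 were above dehydration, of ZIM 14 of 17, of AP2-EREBP 43 of 48 of NAC 19 of 20, of MYB/HD-like 24 of 34 and of CO-like 1 of 4. Of the downregulated genes, 0 of 8 CO-like (1 at an unadjusted p under 0.05) and 2 of 18 MYB/HD-like genes were below dehydration, and 2 MYB/HD-like genes were above it. The WRKY gene Glyma17g33890 was at 0.440, 0.120 and 0.779 CPM in dehydration, within or below its control range and far under the salt libraries (edgeR adjusted p = 0.00012 for salt against dehydration). The MYB/HD-like gene Glyma16g01980 was at 107, 153 and 110 CPM in dehydration, which overlapped the salt libraries (log2 difference 0.02; edgeR adjusted p = 0.952) and lay below every control. Of the 10 leading downregulated factor genes, 8 were not called between salt and dehydration, 1 was below dehydration and 1 above. The gene below was Glyma09g33070, with 196 ± 39.8 CPM (SD, n = 3) in dehydration, near the control, and 44.3 ± 6.10 CPM in salt (edgeR adjusted p = 0.000465). The gene above was Glyma19g45030 (log2 difference 1.21; edgeR adjusted p = 0.033). Of the 10 leading upregulated factor genes, 7 were above dehydration and 3 were not called. The JUMONJI genes Glyma11g13910 and Glyma12g05890 also rose in dehydration (log2 fold changes 2.65 and 2.52 against the control). A p-value above the threshold here does not show equal levels.

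Beside the other salt times, the genes called at 6 hr were nearer to the control at 1 hr. Over the 2382 upregulated genes the median log2 fold change against the same controls was 0.73 at 1 hr, 2.28 at 6 hr and 2.20 at 12 hr, and over the 1161 downregulated genes it was -0.48, -1.53 and -1.27. The genes were chosen at 6 hr and all 3 comparisons share the control libraries, so these values are a description. Glyma16g01980 was at 593 CPM at 1 hr and 23.9 CPM at 12 hr (means of 3 libraries), and so continued down, and Glyma15g19840 of the ZIM class was at 158 CPM at 1 hr and 165 CPM at 12 hr. Glyma17g33890 was at a mean of 2.09 CPM at 1 hr and at 82.5, 27.3 and 28.5 CPM in the 12 hr libraries, a range that spans its 6 hr levels.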

How the data were processed

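The authors deposited raw counts and a DESeq-normalized signal for 62537 gene models and 21 libraries. Per the study's methods, single-end reads were aligned with GSNAP to the Glyma1.0 gene calls and reads with a single location were counted. The deposited counts carry no normalization. In the authors' normalized signal each count is divided by 1 size factor per library (DESeq 1.7.10, per the labels). Reads shared by near-identical homoeologs were not counted, and the counting program and its use of strand are not given in the sources used here, so overlapping genes are uncertain.

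Counts were filtered with filterByExpr by group (36691 genes kept), TMM-normalized and fitted with edgeR 4.0.16 (R 4.3.3; glmQLFit, robust) in 1 model of all 7 groups without covariates, and p-values were Benjamini-Hochberg adjusted over all tested genes. Standard errors are the log2 fold change over the square root of F. CPM are counts over library total times TMM factor. Alternatives used limma 3.58.1 on log2 of the normalized signal, DESeq2 1.42.0, other scalings and filters, fewer libraries, and lane or replicate number as a term. On simulated data for this comparison with 36691 genes, edgeR's test called 90 of 100 genes changed by 4-fold and 99 of 100 changed by 16-fold, with 5 unchanged genes called. The changed genes were drawn from those above a minimum level and changed equally in all salt libraries. The simulated spread followed the fitted trend with level, and no lane effect was included. These counts therefore do not give the rates of missed or false calls in the real libraries.

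Replicates are biological per the study's methods, which do not say how plants were divided among them. Library totals over the 21 libraries were 3752853 to 28177205 counts, and 3 counts in a control library correspond to 0.362 CPM on average. The smallest chi-square per gene between replicates was 10.7, so no 2 libraries were taken as 1. The floor of 3 counts covers counting error only, whereas the standard errors also include the fitted spread between replicates.

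The members and lists were chosen with earlier results of these data known. The reference table matched 0 of the 62537 IDs, so planned lists and cell type markers defined by gene description could not be matched and no sequences are shown. The rule for named genes therefore used the study's class table in place of descriptions: the 10 rising and 10 falling classified genes and 2 and 2 unclassified genes with the smallest p-values among non-overlapping genes of at least 5 CPM, the leading gene in each direction of each class of at least 20 listed genes (a part of which is printed), every HD-Zip gene called, and the 3 highest and 3 lowest replicate 3 ratios. Other ZIM genes, Glyma13g23890 and Glyma08g13110, and Glyma16g34340 and Glyma19g45030 of the leading set, were named for their values or roles after these were seen.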

Additional observations from a re-analysis of the deposited data

Results flagged for a closer look

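Of the 3543 genes DE at 6 hr of salt, 2408 also differed between salt and dehydration at 6 hr in the direct comparison of the groups (edgeR, adjusted p under 0.05 and at least 2-fold). They divide into 1798 upregulated genes above dehydration, 608 downregulated genes below it and 2 downregulated genes above it. These groups have no sequencing lane in common, so lane and treatment cannot be told apart, and a fit that includes lane called 0 genes between them (5963 had an unadjusted p under 0.05).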

How the results depend on the processing

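Fitting only the 6 libraries compared gave 1924 DE genes, 1441 up and 483 down. Lane as a term gave 33, 21 up and 12 down, of which 31 were shared with the 3543, and 0 in the 6 hr comparison with dehydration (edgeR; unadjusted p under 0.05 in 5963). Removing the fold limit gave 1817 downregulated genes and 8189 between salt and dehydration. Leaving out 1 library at a time gave 1871 to 4210 DE genes, 1260 to 2948 up, 611 to 1262 down and 3705 to 5879 between salt and dehydration. Upregulated genes were 1573 without control replicate 1 and 1405 without control replicate 3, and downregulated genes were 760 and 676 without control replicates 2 and 3 and 755 without salt replicate 2. The upregulated share, 67.2%, was 56.5% without control replicate 1. The replicate number does not pair the samples (same-numbered deviations correlated at -0.277, -0.121 and -0.118 over genes), and as a replicate block it gave 2992 DE genes, 2034 up and 958 down, fewer than without it. Held-out medians of downregulated genes moved to -1.09 for replicate 1 with 2 CPM added, and to -1.73 for replicate 1 and -2.39 for replicate 2 when only the other 5 libraries were fitted. The cause was not tested. DESeq2 called 4326 genes, and limma on log2 of the normalized signal called 3184 with 1 added and 2838 with 0.1 added. DESeq's size factors moved the median of all genes from -0.025 to -0.006. Of the values for single genes and classes, 1282 kept their call and direction or count, 241 lost the call or had a count lower by over 1.5 times, 5 had a higher one, 1 moved and 0 reversed. Genes under 1 CPM in the controls rest on few counts, and 3 libraries per group limit the precision of every value.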
